A study of Saccharomyces cerevisiae with 6 samples.

Results

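*GCN4* (YEL009C) and 39 genes of amino acid biosynthesis were followed across the microarray data of *ccr4Δ pbp1Δ*, *ccr4Δ* and wild-type cells of *Saccharomyces cerevisiae*. The 40 genes were taken by name from 6225 genes on the array. They are *GCN4* itself and 7 genes of arginine, 4 of histidine, 7 of lysine, 8 of aromatic, 9 of branched-chain and 4 of threonine biosynthesis. Each of the 3 strains was grown at 28°C in YPD, a rich medium with glucose, and collected in stationary phase and in log phase. With 1 array for every strain in every phase, 6 in all, no condition was replicated. The *ccr4Δ pbp1Δ* mutant lacks *CCR4* and *PBP1*, the *ccr4Δ* mutant lacks *CCR4* alone, and the wild-type strain has both genes. The sample labels give no more of the genotypes, and it is assumed here that the strains in the study's strain list were the ones hybridised. The listed wild-type strain and *ccr4Δ* mutant are derivatives of W303 that share mutant alleles of *ade2*, *trp1*, *can1*, *leu2*, *his3* and *ura3*. The list does not give the full genotype of the *ccr4Δ pbp1Δ* mutant. The listed *ccr4Δ* mutant is *MATa* and carries the *LEU2* gene of *Candida glabrata* in place of *CCR4*, while the listed wild-type strain is *MATα* and *leu2* and holds an *ADE2* reporter under the *HO* promoter. In the comparison of *ccr4Δ* with wild-type cells, the *CCR4* deletion, the mating type and the *LEU2* marker cannot be told apart.

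Gcn4 is the transcription activator of the general amino acid control. When amino acids are scarce, the kinase Gcn2 phosphorylates the translation factor eIF2, ribosomes pass the short upstream reading frames of the *GCN4* mRNA, and more Gcn4 protein is made, so the mRNA level of *GCN4* does not give the amount of its protein. Gcn4 raises transcription of enzymes in many amino acid pathways at once, and single pathways have their own regulators beside it, such as Leu3 for the branched-chain genes, Lys14 for the lysine genes and the ArgR/Mcm1 repressor for the arginine genes. Ccr4 is the main cytoplasmic deadenylase, which shortens the poly(A) tails of mRNAs. Pbp1 binds the poly(A)-binding protein Pab1 and is the yeast relative of ataxin-2.

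The value of a gene is given as a relative signal, in which the 75th percentile of each array is 100. It compares 1 gene between arrays, and does not rank one gene against another. Since the signal is scaled within each array, RNA per cell was not measured, and a lower level in every cell cannot be told apart from fewer cells with the mRNA. All 40 genes had 1 probe with 2 spots, and both spots were well above background on all 6 arrays. The 75th percentile itself lay between 10689 intensity units, in *ccr4Δ* cells in stationary phase, and 16412 units. The *CCR4* probe was not well above background on the 4 arrays of the mutants and was at least 134-fold lower in *ccr4Δ* than in wild-type cells in stationary phase and at least 108-fold lower in log phase. *PBP1* was at least 237-fold lower in *ccr4Δ pbp1Δ* than in *ccr4Δ* cells in stationary phase and at least 491-fold lower in log phase. The wild-type log phase array lay on another slide than the other 5 arrays, so slide and strain cannot be told apart in the log phase ratio over wild-type. A list of 7 a-specific genes had a summed relative signal of 225.7 in *ccr4Δ pbp1Δ*, 701 in *ccr4Δ* and 28.8 in wild-type cells in stationary phase, and 1408 in *ccr4Δ pbp1Δ*, 1703 in *ccr4Δ* and 24.3 in wild-type cells in log phase. For 4 α-specific genes the sums were 19.8 in *ccr4Δ pbp1Δ*, 18.6 in *ccr4Δ* and 72.8 in wild-type cells in stationary phase, and 12.8 in *ccr4Δ pbp1Δ*, 35.3 in *ccr4Δ* and 2324 in wild-type cells in log phase. The mutants thus had a-type sums and the wild-type cells did not. For 10 genes of stationary phase, of which 9 were measured on the wild-type log phase array, the sums were 3754 in *ccr4Δ pbp1Δ*, 3692 in *ccr4Δ* and 3447 in wild-type cells in stationary phase, and 197 in *ccr4Δ pbp1Δ*, 735 in *ccr4Δ* and 181 in wild-type cells in log phase. The stationary phase genes were therefore higher in the *ccr4Δ* log phase array than in the other 2 log phase arrays, and the part of this difference in the log phase results was not tested.

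In stationary phase, nearly all the amino acid genes had lower signals in the *ccr4Δ pbp1Δ* double mutant than in the *ccr4Δ* single mutant. The double mutant lacks *PBP1* in addition to *CCR4*. Its full genotype is not given, so a marker or other strain difference cannot be told apart from the loss of *PBP1* here. The median log2 ratio of *ccr4Δ pbp1Δ* over *ccr4Δ* cells was -1.31 over the 40 genes, against 0.04 over 5880 genes measured on both arrays. Of the 40 genes, 34 were at least 1.5-fold lower and 0 at least 1.5-fold higher, where 10.8% and 10.4% of all genes were. A gene was counted from 1.5-fold on, which is 0.585 on the log2 scale. With 1 array in each condition there is no test of such a ratio, and the SE given with it comes from the 2 spots alone and covers technical error only. The 6 genes that did not pass the limit were *ARO2* with -0.57, *LEU9* with -0.49, *ILV6* with -0.27, *LEU1* with -0.19, *LYS4* with -0.18 and *GCN4* with 0.25. *GCN4* was the single gene of the 40 with a ratio above 0. The arginine genes had the lowest median of the 6 pathways, -2.02, with all 7 past the limit, followed by the histidine genes with -1.54 and 4 of 4. The lysine genes had a median of -1.40 with 6 of 7 lower, the aromatic genes -1.26 with 7 of 8, the threonine genes -1.13 with 4 of 4 and the branched-chain genes -0.79 with 6 of 9.

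**Figure D1:**
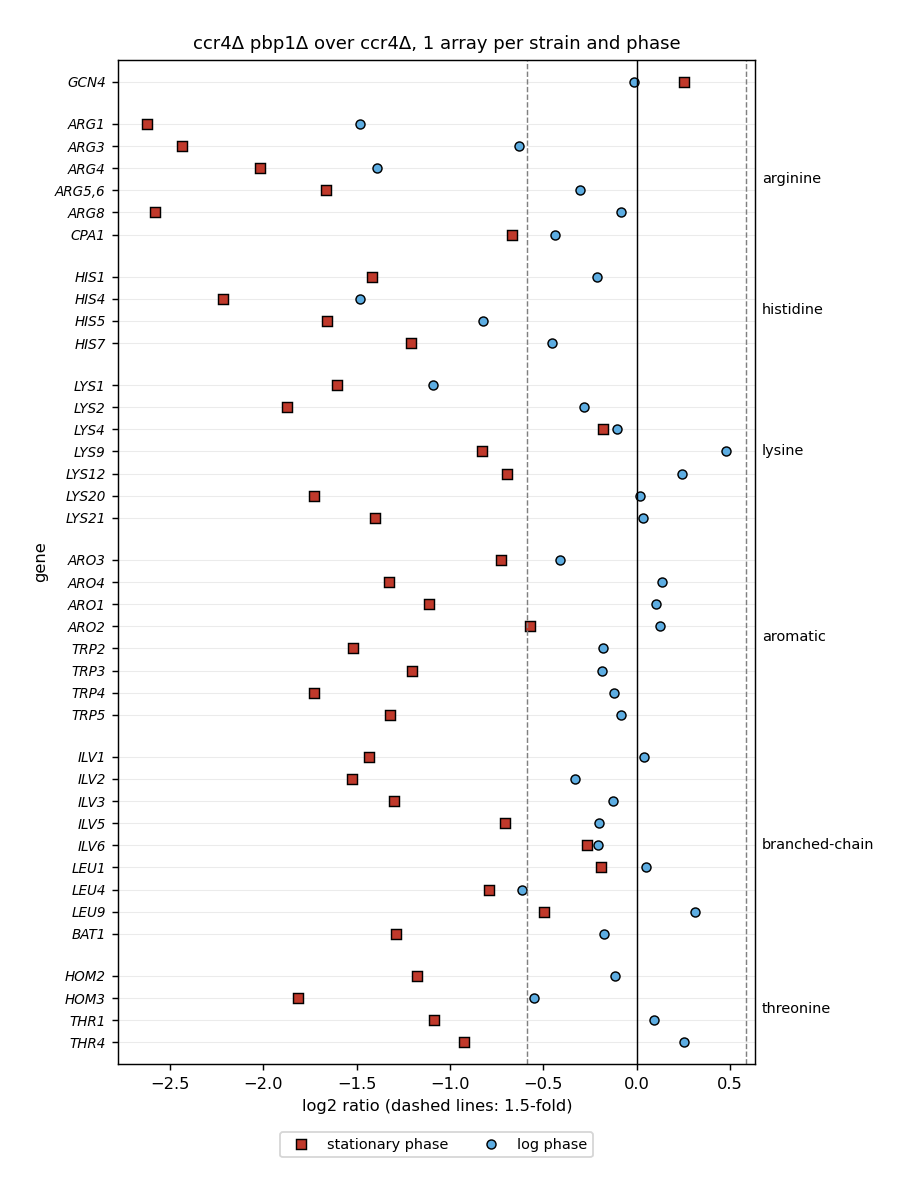
Log2 ratio of *ccr4Δ pbp1Δ* over *ccr4Δ* for 39 of the 40 genes, by pathway, in stationary phase (squares) and in log phase (circles), from 1 array per strain and phase; dashed lines mark 1.5-fold. In stationary phase 33 of the genes drawn lie left of the lower dashed line and *GCN4* alone lies right of 0, while in log phase 7 lie left of that line.

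In log phase the same pair of strains differed less. The median log2 ratio was -0.18 over the 40 genes and 0.01 over 5916 genes, with 8 genes at least 1.5-fold lower and 0 higher, where 7.0% and 1.52% of all genes were. *ARG1*, *ARG3*, *ARG4*, *HIS4*, *HIS5*, *LYS1* and *LEU4* were among them, and all 8 were also past the limit in stationary phase. Of 5831 genes measured on all 4 arrays of the mutants, 1.92% were lower in both phases. The log phase ratio was -1.48 ± 0.04 for *ARG1* and -0.63 ± 0.02 for *ARG3*. None of the 8 aromatic or 4 threonine genes passed the limit in log phase, and their medians were -0.10 and -0.01.

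The median ratio of the *ccr4Δ* mutant over wild-type cells had opposite signs in the 2 growth phases. In stationary phase the median log2 ratio was 0.45 over the 40 genes and -0.08 over 6034 genes. At least 1.5-fold higher were 18 of the 40 genes and at least 1.5-fold lower were 4, where 22.6% and 29.1% of all genes were. All 4 histidine genes were higher, with a median of 2.16, as were 4 of 7 lysine genes, with a median of 0.74, and 4 of 8 aromatic genes, with a median of 0.62. The arginine genes had a median of 0.47 with 3 higher and 1 lower, the threonine genes 0.53 with 2 of 4 higher, and the branched-chain genes 0.19 with 1 higher and 3 lower. Without the scaling of each array the median of the 40 genes was 0.055, with 11 genes higher and 8 lower, and that of all genes was -0.48. The *ccr4Δ* stationary phase array had the lowest 75th percentile of the 6.

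In log phase *ccr4Δ* over wild-type cells had a median of -0.29 over the 40 genes and -0.07 over 5765 genes, with 7 genes higher and 10 lower, where 13.6% and 15.9% of all genes were. With quantile normalization of the arrays there were 7 higher and 5 lower. The median of the 40 genes minus that of all genes was then -0.06. *ARG1*, *ARG3*, *ARG5,6*, *HIS4*, *HIS5* and *ILV5* were among the higher genes. The 10 lower genes were *LYS9*, *LYS21*, *ARO4*, *ARO2*, *ILV2*, *LEU1*, *LEU9*, *BAT1*, *HOM2* and *THR4*. The pathways thus differed in sign. The arginine and histidine medians were 0.66 and 0.50, and the lysine, aromatic, branched-chain and threonine medians were -0.23, -0.27, -0.54 and -0.59. Of the 40 genes, 4 were higher in both phases (*ARG1*, *HIS4* and *HIS5* among them) and 3 lower in both (*ILV2*, *LEU1* and *LEU9*), against 6.25% and 8.6% of 5756 genes. A further 3 genes, *LYS9*, *LYS21* and *HOM2*, were higher in stationary phase and lower in log phase, against 1.56% of those genes.

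**Figure D2:**
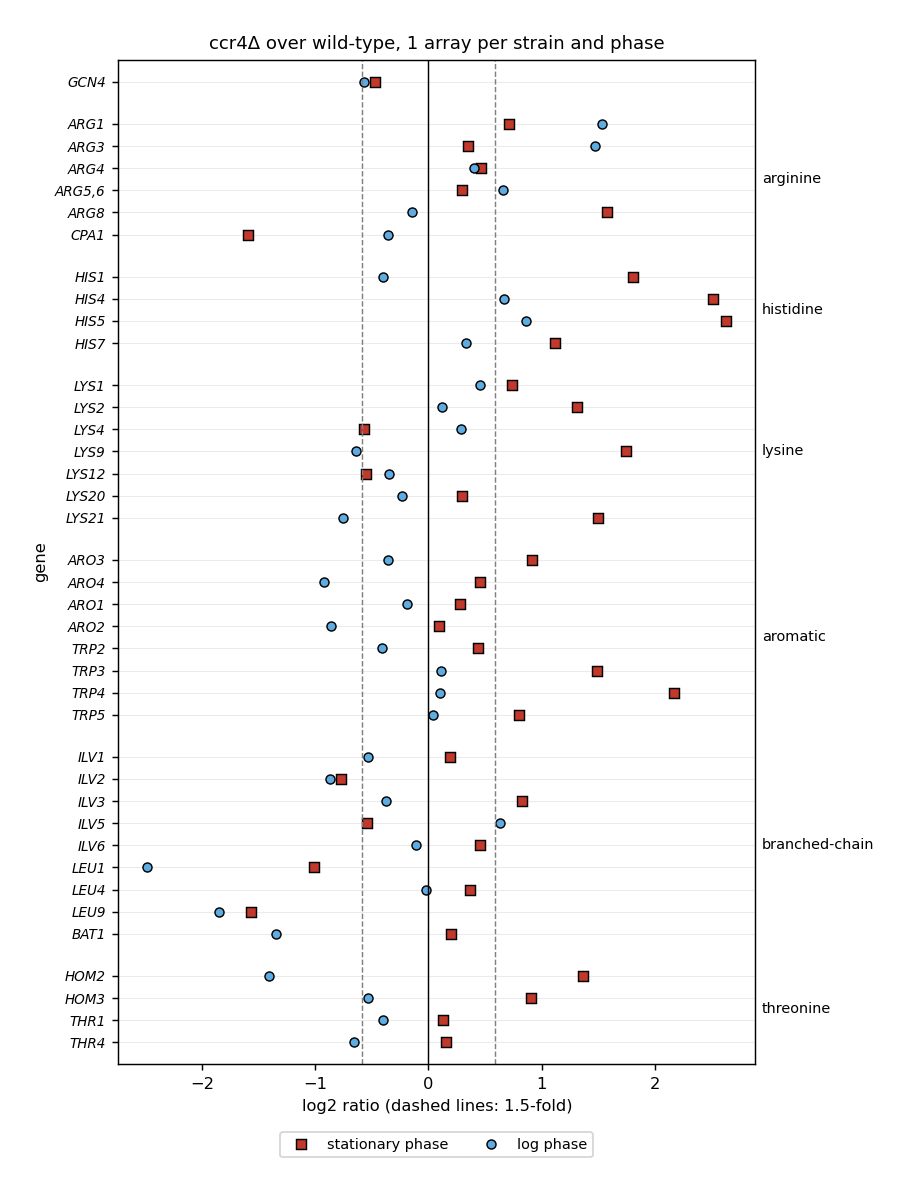
Log2 ratio of *ccr4Δ* over wild-type for 39 of the 40 genes, by pathway, in stationary phase (squares) and in log phase (circles), from 1 array per strain and phase; dashed lines mark 1.5-fold. In stationary phase 17 of the genes drawn lie right of the upper dashed line and the 4 histidine genes are among them, while *LEU1* and *LEU9* lie far to the left in both phases.

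The stationary phase ratios of *ccr4Δ pbp1Δ* over *ccr4Δ* and of *ccr4Δ* over wild-type cells share the *ccr4Δ* array and are not independent of each other. The *ccr4Δ pbp1Δ* mutant was also set against wild-type cells directly. The mutant had a-type sums and the wild-type cells did not. The deletions, the mating type and any marker therefore cannot be told apart in this ratio, and in log phase neither can the slide. In stationary phase the median log2 ratio of *ccr4Δ pbp1Δ* over wild-type cells was -0.85 for the 40 genes and -0.09 for all genes. At least 1.5-fold lower were 23 genes and higher were 2, where 29.5% and 24.0% of all genes were, and the 2 higher genes were *HIS5* with 0.97 and *LYS9* with 0.91. The arginine genes were lower in 7 of 7 cases, with a median of -1.55, the branched-chain genes in 6 of 9 with -1.20, the lysine genes in 4 of 7 with -0.75, the threonine genes in 3 of 4 with -0.84 and the aromatic genes in 3 of 8 with -0.50. No histidine gene was lower, and their median was 0.34. In log phase the median of *ccr4Δ pbp1Δ* over wild-type cells was -0.45, with 16 genes lower and 1 higher, where 9.82% and 7.23% of all genes were. The higher gene was *ARG3*, with 0.84. Lower in both phases were 9 genes, *ARG4*, *CPA1*, *LYS1*, *ARO4*, *ILV2*, *LEU1*, *LEU9*, *BAT1* and *HOM3*, against 4.94% of 5731 genes.

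The order of the 3 strains within a phase gives the same data without a limit on the ratio. In stationary phase the *ccr4Δ* array had the highest relative signal of the 3 strains for 32 of the 40 genes, against 24.4% of 5869 genes, and the *ccr4Δ pbp1Δ* array the lowest for 29, against 29.8%. Both held for 22 genes, against 8.09% of all genes. The 8 genes that were highest in wild-type cells were *GCN4*, *CPA1*, *LYS4*, *LYS12*, *ILV2*, *ILV5*, *LEU1* and *LEU9*, against 45.8% of all genes. In log phase the *ccr4Δ pbp1Δ* array was lowest for 21 genes, the *ccr4Δ* array was highest for 15 and the wild-type array for 25, against 24.4%, 34.0% and 48.0% of 5761 genes. The *ccr4Δ pbp1Δ* array was highest for 0 of the 40 genes in either phase, where it was highest for 29.8% of all genes in stationary phase and 18.0% in log phase.

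**Figure D3:**
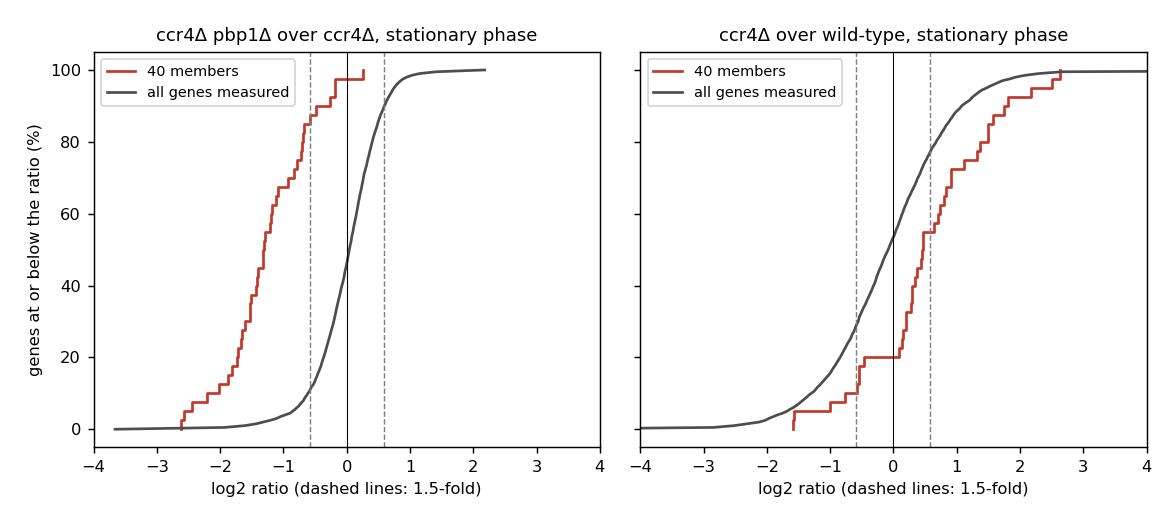
Share of genes (%) at or below each log2 ratio for the 40 amino acid genes (red) and for all genes measured on both arrays (grey), in *ccr4Δ pbp1Δ* over *ccr4Δ* (left) and *ccr4Δ* over wild-type (right) cells in stationary phase; dashed lines mark 1.5-fold and the ratio axis ends at 4 on either side. The red curve lies left of the grey one on the left, with medians of -1.31 and 0.04, and mostly right of it on the right, with medians of 0.45 and -0.08; both panels share the *ccr4Δ* array.

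For *GCN4* (YEL009C), the gene of the activator itself, the relative signal was 977 in *ccr4Δ pbp1Δ*, 819.5 in *ccr4Δ* and 1137 in wild-type cells in stationary phase, and 504 in *ccr4Δ pbp1Δ*, 508 in *ccr4Δ* and 753 in wild-type cells in log phase. It was higher in stationary than in log phase in all 3 strains, with log2 ratios of 0.95 in *ccr4Δ pbp1Δ*, 0.69 in *ccr4Δ* and 0.60 in wild-type cells. In each phase the wild-type array was the highest of the 3, and the *ccr4Δ* over wild-type ratio stayed under the limit, at -0.47 ± 0.05 in stationary phase and -0.57 ± 0.05 in log phase. This depends on the scaling of the arrays, since the *GCN4* ratio was -0.87 without scaling in stationary phase and -0.62 with median scaling in log phase, both past the limit, and -0.12 and -0.10 with quantile normalization. *GCN4* did not share the lower stationary phase signals of the enzyme genes in *ccr4Δ pbp1Δ* cells, since its ratio over *ccr4Δ* was 0.25 ± 0.13 there and -0.01 in log phase.

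**Figure D4:**
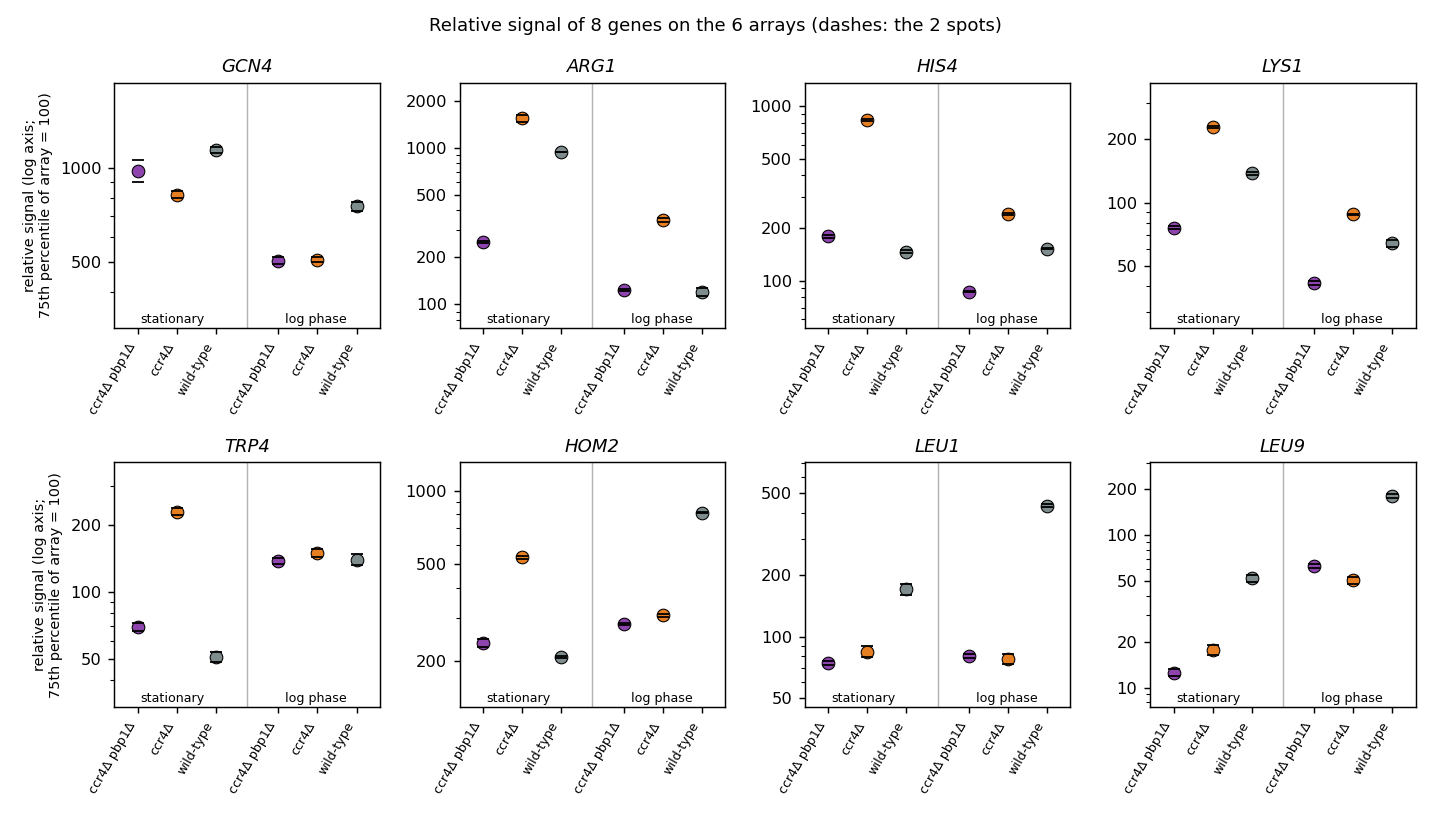
Relative signal (log axis, 75th percentile of each array = 100) of *GCN4*, *ARG1*, *HIS4*, *LYS1*, *TRP4*, *HOM2*, *LEU1* and *LEU9* on the 6 arrays; points are the mean of the 2 spots and dashes the spots, with stationary phase left and log phase right in each panel. *ARG1*, *HIS4* and *LYS1* are highest in *ccr4Δ* cells in both phases, while *LEU1* and *LEU9* are highest in wild-type cells in both.

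The arginine genes held the 3 lowest *ccr4Δ pbp1Δ* over *ccr4Δ* ratios of the 40 genes in stationary phase, those of *ARG1*, *ARG8* and *ARG3*. *ARG1* (YOL058W), which encodes argininosuccinate synthetase, had a relative signal of 249.7 in *ccr4Δ pbp1Δ*, 1537 in *ccr4Δ* and 939.5 in wild-type cells in stationary phase, and 124 in *ccr4Δ pbp1Δ*, 346 in *ccr4Δ* and 119.8 in wild-type cells in log phase. The *ccr4Δ* array was highest in both phases, and the *ccr4Δ pbp1Δ* array was close to wild-type in log phase but well below it in stationary phase. Its log2 ratio of *ccr4Δ pbp1Δ* over *ccr4Δ* was -2.62 ± 0.07 in stationary phase, with 0.12% of genes lower, and -1.48 ± 0.04 in log phase. *ARG3* (YJL088W), the ornithine carbamoyltransferase gene, had 28.4 in *ccr4Δ pbp1Δ*, 154 in *ccr4Δ* and 121 in wild-type cells in stationary phase, and 21.6 in *ccr4Δ pbp1Δ*, 33.5 in *ccr4Δ* and 12.1 in wild-type cells in log phase. *CPA1* (YOR303W), the small subunit of the arginine-specific carbamoyl phosphate synthetase, had 54.0 in *ccr4Δ pbp1Δ*, 85.9 in *ccr4Δ* and 259 in wild-type cells in stationary phase, and 44.0 in *ccr4Δ pbp1Δ*, 59.5 in *ccr4Δ* and 76.1 in wild-type cells in log phase, and was highest in wild-type cells in both phases. Its stationary phase ratio of *ccr4Δ* over wild-type cells was -1.59 ± 0.05. *ARG8* (YOL140W), the acetylornithine aminotransferase gene, had 10.8 in *ccr4Δ pbp1Δ*, 64.6 in *ccr4Δ* and 21.6 in wild-type cells in stationary phase, and 7.81 in *ccr4Δ pbp1Δ*, 8.27 in *ccr4Δ* and 9.16 in wild-type cells in log phase. The *ccr4Δ* stationary phase array alone stood well above the others for *ARG8*, and the ratio of *ccr4Δ pbp1Δ* over *ccr4Δ* was -2.58 ± 0.05 there and -0.08 in log phase. *ARG4*, the argininosuccinate lyase gene, had *ccr4Δ pbp1Δ* over *ccr4Δ* ratios of -2.02 in stationary and -1.39 in log phase, and *ARG5,6*, which encodes acetylglutamate kinase and the next enzyme of the pathway, had -1.66 in stationary and -0.30 in log phase.

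The 4 histidine genes among the 40 had the highest median *ccr4Δ* over wild-type log2 ratio of the 6 pathways in stationary phase, 2.16. *HIS2*, *HIS3* and *HIS6* are not among the 40. Averaged over both phases, their limma differences (± SE of the fit) in *ccr4Δ* minus wild-type were 0.42 ± 0.42, -0.57 ± 0.27 and 0.15 ± 0.31. Those of the 4 genes ran from 0.70 for *HIS1* to 1.75 for *HIS5*. *HIS4* (YCL030C), a trifunctional enzyme gene, had a relative signal of 179 in *ccr4Δ pbp1Δ*, 833 in *ccr4Δ* and 146 in wild-type cells in stationary phase, and 86.3 in *ccr4Δ pbp1Δ*, 241 in *ccr4Δ* and 152 in wild-type cells in log phase. Here too the *ccr4Δ* array was highest in both phases, and in stationary phase the *ccr4Δ pbp1Δ* array was much nearer to the wild-type one. *HIS5* (YIL116W), the histidinol-phosphate aminotransferase gene, had 84.5 in *ccr4Δ pbp1Δ*, 267 in *ccr4Δ* and 43.2 in wild-type cells in stationary phase, and 71.1 in *ccr4Δ pbp1Δ*, 126 in *ccr4Δ* and 69.3 in wild-type cells in log phase. Its stationary phase ratio of *ccr4Δ* over wild-type cells, 2.63 ± 0.03, was the highest among the 40 genes, and that of *HIS4* was 2.51 ± 0.03. *HIS1* (YER055C), which encodes the first enzyme of the pathway, had 150.5 in *ccr4Δ pbp1Δ*, 402 in *ccr4Δ* and 115 in wild-type cells in stationary phase, and 391 in *ccr4Δ pbp1Δ*, 452 in *ccr4Δ* and 598 in wild-type cells in log phase. In stationary phase *HIS1* was far lower in *ccr4Δ pbp1Δ* and wild-type cells than in *ccr4Δ* cells, whereas in log phase the wild-type array was highest. *HIS7* (YBR248C), the imidazole glycerol phosphate synthase gene, had 54.3 in *ccr4Δ pbp1Δ*, 125 in *ccr4Δ* and 57.9 in wild-type cells in stationary phase, and 107 in *ccr4Δ pbp1Δ*, 146 in *ccr4Δ* and 116 in wild-type cells in log phase. The *ccr4Δ pbp1Δ* over *ccr4Δ* ratios in stationary phase were -2.22 for *HIS4*, -1.66 for *HIS5*, -1.42 for *HIS1* and -1.21 for *HIS7*, and in log phase -1.48 for *HIS4*, -0.82 for *HIS5*, -0.21 for *HIS1* and -0.45 for *HIS7*.

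The lysine genes had unlike ratios among themselves. *LYS1* (YIR034C), the saccharopine dehydrogenase gene of the last step, had a relative signal of 75.6 in *ccr4Δ pbp1Δ*, 229.7 in *ccr4Δ* and 138 in wild-type cells in stationary phase, and 41.2 in *ccr4Δ pbp1Δ*, 87.9 in *ccr4Δ* and 63.9 in wild-type cells in log phase. It was highest in *ccr4Δ* and lowest in *ccr4Δ pbp1Δ* cells in both phases, with *ccr4Δ pbp1Δ* over *ccr4Δ* ratios of -1.60 ± 0.03 in stationary phase and -1.09 ± 0.03 in log phase. *LYS9* (YNR050C), the saccharopine dehydrogenase gene of the step before it, had 26.4 in *ccr4Δ pbp1Δ*, 46.9 in *ccr4Δ* and 14.0 in wild-type cells in stationary phase, and 312 in *ccr4Δ pbp1Δ*, 223 in *ccr4Δ* and 349 in wild-type cells in log phase. It was far lower in stationary than in log phase in every strain, and the wild-type array was the lowest in stationary phase and the highest in log phase. The isozymes of homocitrate synthase, the first step, are encoded by *LYS20* and *LYS21*. *LYS21* (YDL131W) had 101 in *ccr4Δ pbp1Δ*, 266 in *ccr4Δ* and 94.4 in wild-type cells in stationary phase, and 170.5 in *ccr4Δ pbp1Δ*, 167 in *ccr4Δ* and 281 in wild-type cells in log phase, and its ratio of *ccr4Δ* over wild-type cells was 1.49 ± 0.07 in stationary phase and -0.75 ± 0.05 in log phase. With quantile normalization the log phase ratios of *LYS9* and *LYS21* were under the limit. *LYS20* stayed under it in both phases, with 0.29 in stationary phase and -0.23 in log phase. *LYS4* (YDR234W), the homoaconitase gene, had 132 in *ccr4Δ pbp1Δ*, 149 in *ccr4Δ* and 222 in wild-type cells in stationary phase, and 206 in *ccr4Δ pbp1Δ*, 221 in *ccr4Δ* and 181 in wild-type cells in log phase, and was the one lysine gene under the limit in *ccr4Δ pbp1Δ* over *ccr4Δ* cells in stationary phase. The ratios there were -1.87 for *LYS2*, -1.73 for *LYS20*, -1.40 for *LYS21*, -0.83 for *LYS9* and -0.69 for *LYS12*, where *LYS2* encodes alpha-aminoadipate reductase and *LYS12* homoisocitrate dehydrogenase. Without the sequences of the probes, cross-hybridization between *LYS20* and *LYS21*, or between the isozyme pairs *LEU4* and *LEU9* and *ARO3* and *ARO4*, was not checked.

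Among the aromatic genes, the 2 tryptophan genes *TRP4* and *TRP3* stood out in *ccr4Δ* cells in stationary phase. *TRP4* (YDR354W), the anthranilate phosphoribosyltransferase gene, had a relative signal of 69.3 in *ccr4Δ pbp1Δ*, 229 in *ccr4Δ* and 51.0 in wild-type cells in stationary phase, and 138 in *ccr4Δ pbp1Δ*, 149.7 in *ccr4Δ* and 139 in wild-type cells in log phase. The 3 log phase arrays lay close together, and in stationary phase the *ccr4Δ* array was far above the other 2. *TRP3* (YKL211C), which encodes a part of anthranilate synthase, had 116 in *ccr4Δ pbp1Δ*, 266 in *ccr4Δ* and 94.8 in wild-type cells in stationary phase, and 133 in *ccr4Δ pbp1Δ*, 151 in *ccr4Δ* and 140.3 in wild-type cells in log phase, in the same order of strains with *ccr4Δ* highest in both phases. The stationary phase ratio of *ccr4Δ* over wild-type cells was 2.17 ± 0.09 for *TRP4* and 1.49 ± 0.02 for *TRP3*. *ARO3* and *ARO4* encode the isozymes of DAHP synthase, which starts the shikimate pathway. *ARO3* (YDR035W) had 302 in *ccr4Δ pbp1Δ*, 499 in *ccr4Δ* and 265 in wild-type cells in stationary phase, and 85.5 in *ccr4Δ pbp1Δ*, 114 in *ccr4Δ* and 146 in wild-type cells in log phase. *ARO4* (YBR249C) had 185 in *ccr4Δ pbp1Δ*, 463 in *ccr4Δ* and 339 in wild-type cells in stationary phase, and 540.5 in *ccr4Δ pbp1Δ*, 492 in *ccr4Δ* and 929 in wild-type cells in log phase. The isozyme genes thus differed between phases in opposite directions in *ccr4Δ pbp1Δ* cells, with stationary over log ratios of 1.82 ± 0.03 for *ARO3* and -1.55 ± 0.10 for *ARO4*, and in wild-type cells, with 0.86 ± 0.02 for *ARO3* and -1.45 ± 0.04 for *ARO4*. In *ccr4Δ* cells the ratio was 2.13 ± 0.02 for *ARO3* and -0.09 for *ARO4*. *ARO2* (YGL148W), the chorismate synthase gene, had 193 in *ccr4Δ pbp1Δ*, 286 in *ccr4Δ* and 269 in wild-type cells in stationary phase, and 306 in *ccr4Δ pbp1Δ*, 279.7 in *ccr4Δ* and 507 in wild-type cells in log phase, and was highest in wild-type cells in log phase. In *ccr4Δ pbp1Δ* over *ccr4Δ* cells in stationary phase the ratios were -1.73 for *TRP4*, -1.52 for *TRP2*, -1.33 for *ARO4*, -1.32 for *TRP5*, -1.20 for *TRP3*, -1.11 for *ARO1* and -0.72 for *ARO3*. *TRP2* encodes the other part of anthranilate synthase, *TRP5* tryptophan synthase and *ARO1* the multifunctional enzyme of the middle shikimate steps.

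The branched-chain genes held the lowest *ccr4Δ* over wild-type ratios of the 40 genes in log phase. *LEU1* (YGL009C), the isopropylmalate isomerase gene, had a relative signal of 74.0 in *ccr4Δ pbp1Δ*, 84.5 in *ccr4Δ* and 169.8 in wild-type cells in stationary phase, and 80.6 in *ccr4Δ pbp1Δ*, 77.8 in *ccr4Δ* and 435 in wild-type cells in log phase. Both mutants lay close together and far below wild-type cells in log phase, and about level with each other and below wild-type cells in stationary phase. *LEU9* (YOR108W), an isozyme gene of alpha-isopropylmalate synthase, had 12.5 in *ccr4Δ pbp1Δ*, 17.6 in *ccr4Δ* and 52.2 in wild-type cells in stationary phase, and 62.7 in *ccr4Δ pbp1Δ*, 50.4 in *ccr4Δ* and 182 in wild-type cells in log phase. In *ccr4Δ* over wild-type cells the log2 ratio was -1.01 ± 0.12 for *LEU1* and -1.57 ± 0.13 for *LEU9* in stationary phase, and -2.48 ± 0.08 for *LEU1* and -1.85 ± 0.10 for *LEU9* in log phase. *LEU4* (YNL104C), the other isozyme gene, had 1151 in *ccr4Δ pbp1Δ*, 1994 in *ccr4Δ* and 1546 in wild-type cells in stationary phase, and 346 in *ccr4Δ pbp1Δ*, 529 in *ccr4Δ* and 536 in wild-type cells in log phase, and differed from *LEU9* in that *ccr4Δ* and wild-type cells were near each other in both phases. *ILV2* (YMR108W), the catalytic subunit gene of acetolactate synthase, had 123 in *ccr4Δ pbp1Δ*, 352 in *ccr4Δ* and 602 in wild-type cells in stationary phase, and 177 in *ccr4Δ pbp1Δ*, 222 in *ccr4Δ* and 404 in wild-type cells in log phase, with wild-type cells highest and *ccr4Δ pbp1Δ* cells lowest in both phases. *BAT1* (YHR208W), the mitochondrial branched-chain aminotransferase gene, had 89.0 in *ccr4Δ pbp1Δ*, 217 in *ccr4Δ* and 189 in wild-type cells in stationary phase, and 307 in *ccr4Δ pbp1Δ*, 346 in *ccr4Δ* and 882 in wild-type cells in log phase. In log phase *BAT1* was far higher in wild-type cells than in either mutant, and in stationary phase the *ccr4Δ pbp1Δ* array was lower than the others. *ILV5* (YLR355C), the acetohydroxyacid reductoisomerase gene, had 188 in *ccr4Δ pbp1Δ*, 307 in *ccr4Δ* and 446 in wild-type cells in stationary phase, and 888 in *ccr4Δ pbp1Δ*, 1021 in *ccr4Δ* and 660.5 in wild-type cells in log phase. *ILV3* (YJR016C), the gene of the dihydroxyacid dehydratase that follows it, had 172 in *ccr4Δ pbp1Δ*, 424 in *ccr4Δ* and 239 in wild-type cells in stationary phase, and 269 in *ccr4Δ pbp1Δ*, 294 in *ccr4Δ* and 382 in wild-type cells in log phase. These consecutive steps had opposite signs in *ccr4Δ* over wild-type cells, since *ILV5* had -0.54 in stationary and 0.63 in log phase, and *ILV3* had 0.83 in stationary and -0.38 in log phase. The stationary phase value of *ILV5* and the log phase value of *ILV3* were under the limit. The other 2 values fell under it in at least 1 of the 6 alternatives that rescale or refilter the values. In *ccr4Δ pbp1Δ* over *ccr4Δ* cells in stationary phase the ratios past the limit were -1.52 for *ILV2*, -1.44 for *ILV1*, -1.30 for *ILV3*, -1.29 for *BAT1*, -0.79 for *LEU4* and -0.71 for *ILV5*, where *ILV1* encodes threonine deaminase. *ILV6*, the regulatory subunit gene of acetolactate synthase, had -0.27, unlike its partner *ILV2*.

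Of the 4 genes between aspartate and threonine, 3 were lower in stationary than in log phase in *ccr4Δ pbp1Δ* cells and 4 in wild-type cells, where 28.6% and 30.5% of all genes were. In *ccr4Δ* cells 1 of them was lower and *HOM2* was higher, where 26.2% and 29.9% of all genes were. *HOM2* (YDR158W), the aspartic semialdehyde dehydrogenase gene, had a relative signal of 236 in *ccr4Δ pbp1Δ*, 533 in *ccr4Δ* and 207 in wild-type cells in stationary phase, and 283 in *ccr4Δ pbp1Δ*, 307 in *ccr4Δ* and 812 in wild-type cells in log phase. Its *ccr4Δ* array was the highest in stationary phase, and the wild-type array was by far the highest in log phase. The ratio of *ccr4Δ* over wild-type cells was 1.36 ± 0.02 in stationary phase and -1.40 ± 0.02 in log phase. *THR1* (YHR025W), the homoserine kinase gene, had 80.3 in *ccr4Δ pbp1Δ*, 170.2 in *ccr4Δ* and 155 in wild-type cells in stationary phase, and 328 in *ccr4Δ pbp1Δ*, 307 in *ccr4Δ* and 405 in wild-type cells in log phase. *THR4* (YCR053W), the threonine synthase gene, had 140.3 in *ccr4Δ pbp1Δ*, 266 in *ccr4Δ* and 239 in wild-type cells in stationary phase, and 435 in *ccr4Δ pbp1Δ*, 365 in *ccr4Δ* and 573 in wild-type cells in log phase. Both were highest in wild-type cells in log phase and lowest in *ccr4Δ pbp1Δ* cells in stationary phase. *HOM3*, the aspartate kinase gene, had the lowest *ccr4Δ pbp1Δ* over *ccr4Δ* ratio of these 4 in stationary phase, -1.81 ± 0.08, against -1.18 for *HOM2*, -1.08 for *THR1* and -0.92 for *THR4*. *HOM6* of the same pathway is not one of the 4 and is given below with the rest of the pathways.

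Between growth phases, the arginine genes and most other enzyme genes differed in opposite directions in wild-type cells, where the 2 arrays lay on different slides, so growth phase and slide cannot be told apart. Over the 40 genes the median log2 ratio of stationary over log phase was -0.65 in *ccr4Δ pbp1Δ* cells, with 8 higher and 22 lower, where 35.9% and 28.6% of 5838 genes were. In *ccr4Δ* cells the median was 0.53, with 18 higher and 5 lower, where 29.9% and 26.2% of 5950 genes were. In wild-type cells it was -0.49, with 11 higher and 18 lower, where 33.4% and 30.5% of 5761 genes were. The arginine genes had a median of 0.40 in *ccr4Δ pbp1Δ* cells with 2 of 7 higher, 2.15 in *ccr4Δ* cells with 5 of 7 higher and 1.77 in wild-type cells with 7 of 7 higher, and *ARG3* had the highest wild-type ratio, 3.32 ± 0.05. The other pathways were mostly lower in wild-type cells. The threonine genes were lower there in 4 of 4 cases, with a median of -1.53, the histidine genes in 3 of 4, with -0.84, the aromatic genes in 4 of 8, with -0.74, the branched-chain genes in 5 of 9, with -0.68, and the lysine genes in 2 of 7, with -0.36. *LYS9* had the lowest wild-type ratio, -4.64 ± 0.05. These counts depend on the scale, since without scaling there were 4 higher and 25 lower in *ccr4Δ pbp1Δ* cells and 9 higher and 13 lower in *ccr4Δ* cells, with all-gene medians of -0.24 and -0.39. The log phase array of *ccr4Δ* cells also had the high sum of stationary phase genes given above, and its part in the *ccr4Δ* ratio was not tested.

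**Figure D5:**
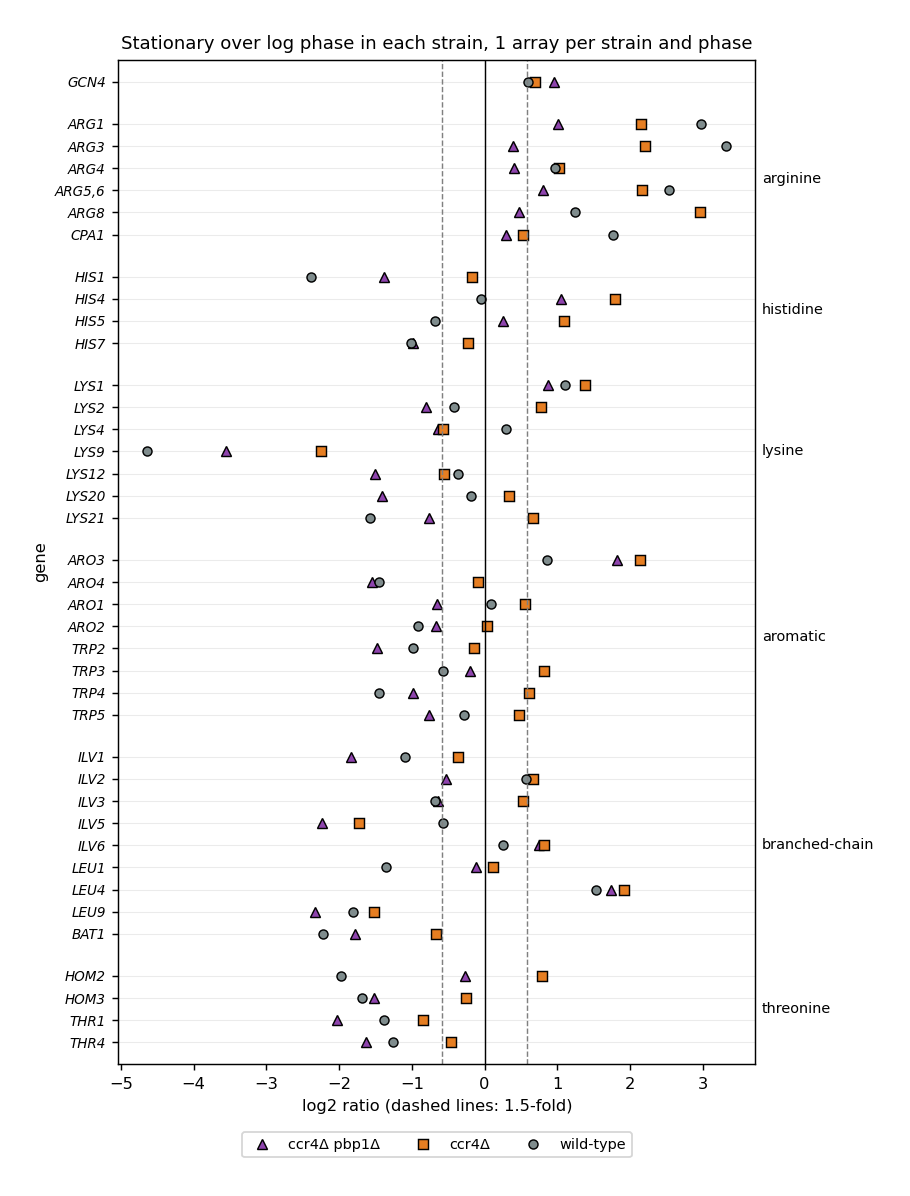
Log2 ratio of stationary over log phase for 39 of the 40 genes, by pathway, in *ccr4Δ pbp1Δ* (triangles), *ccr4Δ* (squares) and wild-type (circles) cells, from 1 array per strain and phase; dashed lines mark 1.5-fold. Of the 6 arginine genes drawn, 2 lie right of the upper line in *ccr4Δ pbp1Δ*, 5 in *ccr4Δ* and 6 in wild-type cells, and *LYS9* lies far left in every strain.

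Higher in all 3 strains were 6 of the 40 genes, *GCN4*, *ARG1*, *ARG5,6*, *LYS1*, *ARO3* and *LEU4*, against 20.4% of 5728 genes, and lower in all 3 were *LYS9*, *LEU9*, *BAT1* and *THR1*, against 18.1%. Under at least 1 of the 6 alternatives that rescale or refilter the values, *GCN4* was no longer past the limit in each of the 3 strains, *ARG5,6* and *LYS1* in *ccr4Δ pbp1Δ* cells and *BAT1* in *ccr4Δ* cells. The difference between phases could be tested by an additive limma fit over the 6 arrays, in which the 3 strains stand in for replicates. Whether the cultures were independent is not stated. With Benjamini-Hochberg adjustment over 5728 genes, 9 of the 40 genes rose and 10 fell in stationary phase at an adjusted p under 0.05, where 25.7% and 22.6% of all genes did. At an unadjusted p under 0.05 limma had 12 higher and 13 lower, against 30.0% and 25.9% of all genes. The genes that rose were *ARG1*, *ARG3*, *ARG4*, *ARG5,6*, *ARG8*, *LYS1*, *ARO3*, *LEU4* and *GCN4*. *LEU4* had the smallest adjusted p of them in the limma fit, with a log2 difference (± SE of the fit) of 1.72 ± 0.22, adjusted p = 0.00229, and *GCN4* had 0.75 ± 0.22, adjusted p = 0.0352. The *GCN4* call was lost without any 1 of the 4 mutant arrays, with limma adjusted p of 0.206 to 0.230, and kept without either wild-type array. Those that fell were *LYS9*, *LEU9*, *THR1*, *BAT1*, *ILV5*, *THR4*, *HOM3*, *ILV1*, *HIS1* and *ARO4*. *LYS9* had the largest limma difference of the 40, with -3.48 ± 0.45, adjusted p = 0.00221, and *LEU9* had -1.88 ± 0.25, adjusted p = 0.00256. Without the *ccr4Δ pbp1Δ* log phase or stationary phase array, 2 genes fell in place of 10, and without the *ccr4Δ* log phase or stationary phase array, 5 rose in place of 9.

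For the strains, the same limma fit called none of the 40 genes. Here the 2 growth phases stand in for replicates, so a strain difference that varies with phase adds to the residual. In *ccr4Δ pbp1Δ* minus *ccr4Δ* the adjusted p was under 0.05 for 0 of 5728 genes in either direction, 0.0%, and the unadjusted p was under 0.05 for 11 of the 40 genes, all lower, against 1.66% of all genes lower and 0.436% higher. Averaged over both phases, 39 of the 40 genes had a difference below 0, with a median of -0.70. This median was -1.27 without the *ccr4Δ* log phase array, -0.995 without the *ccr4Δ pbp1Δ* log phase array, -0.37 without the *ccr4Δ pbp1Δ* stationary phase array and -0.19 without the *ccr4Δ* stationary phase array, where 10 genes had a difference above 0. The share of all genes below 0 was not counted for these averaged differences. In the separate ratios, 3171 of 5880 genes were above 0 in stationary phase and 3045 of 5916 in log phase. The smallest unadjusted p of limma among the 40 was 0.00111, for *ARG4*, with a log2 difference of -1.70 ± 0.30, adjusted p = 1. In *ccr4Δ* minus wild-type, limma called 0 of the 40 genes at an adjusted p under 0.05, against 0.0524% of all genes higher and 0.122% lower. Its unadjusted p was under 0.05 for 3 higher and 2 lower genes, against 7.79% and 11.2% of all genes. *LEU9* had the smallest adjusted p of the 40, with -1.71 ± 0.31, adjusted p = 0.139. Without the wild-type log phase array, 4 of the 40 genes were called higher and 3 lower in *ccr4Δ* minus wild-type, on 1 residual degree of freedom, where 10.9% and 14.2% of 5824 genes were.

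In *ccr4Δ pbp1Δ* over *ccr4Δ* cells, 27 of the 40 genes were at least 2-fold lower in stationary phase and 4 in log phase, and 0 were higher in either, where 3.69% and 2.7% of all genes were lower and 1.67% and 0.186% higher. In *ccr4Δ* over wild-type cells 11 were higher and 3 lower in stationary phase, against 11.5% and 15.6% of all genes, and 2 were higher and 4 lower in log phase, against 5.57% and 4.53%. In *ccr4Δ pbp1Δ* over wild-type cells 0 were higher and 15 lower in stationary phase, against 12.7% and 15.8%, and 0 were higher and 6 lower in log phase, against 2.19% and 2.86%. Between stationary and log phase, 4 were higher and 13 lower in *ccr4Δ pbp1Δ* cells, against 23.9% and 20.0%, 10 were higher and 3 lower in *ccr4Δ* cells, against 17.6% and 16.4%, and 7 were higher and 14 lower in wild-type cells, against 22.7% and 20.6%.

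The rest of the same pathways, 15 genes, was lower in *ccr4Δ pbp1Δ* than in *ccr4Δ* cells in stationary phase in 6 cases and higher in 0, with a median (log2) of -0.39. Of all genes 10.8% were lower and 10.4% higher, and 4 of the 15 had a ratio above 0. *ARO9*, an aromatic aminotransferase gene, had -2.91 ± 0.02, *ARG7*, the ornithine acetyltransferase gene, had -1.61 ± 0.03, and *ARO8*, *ARG2*, *HIS2* and *HIS3* had -1.42, -1.38, -1.33 and -0.80. *BAT2*, the cytosolic branched-chain aminotransferase gene, was not lower there, with 0.06, but its ratio of *ccr4Δ* over wild-type cells was -2.76 ± 0.02 in stationary phase and -0.96 ± 0.03 in log phase. *HOM6* had a limma difference (± SE of the fit) of 0.30 ± 0.39 in *ccr4Δ pbp1Δ* minus *ccr4Δ*, averaged over both phases. *LEU2* (YCL018W) is mutant in the listed wild-type and *ccr4Δ* strains. Its probe gave 12.1 in *ccr4Δ pbp1Δ*, 13.5 in *ccr4Δ* and 53.5 in wild-type cells in stationary phase, and 16.5 in *ccr4Δ pbp1Δ*, 19.7 in *ccr4Δ* and 263 in wild-type cells in log phase. Its signal was thus lower in both mutants than in wild-type cells, as were those of *LEU1* and *LEU9*. *HIS3* and *TRP1* are also mutant in the listed wild-type and *ccr4Δ* strains.

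Of 10 genes that act upstream of Gcn4, which include the kinase gene *GCN2* and subunits of eIF2 and its exchange factor eIF2B, 0 passed the limit in *ccr4Δ pbp1Δ* over *ccr4Δ* cells in either phase, with medians of -0.09 in stationary and 0.25 in log phase. Of all genes 10.8% were lower and 10.4% higher in that ratio in stationary phase, and 7.0% and 1.52% in log phase. *GCN2* had 0.12 in stationary and 0.03 in log phase. In *ccr4Δ* over wild-type cells 3 of the 10 were lower in stationary phase, *GCD6* with -0.89, *GCD11* with -0.83 and *SUI2* with -0.76, a share close to the 29.1% of all genes. Among 8 pathway regulators, *PCL5*, a cyclin whose kinase complex targets Gcn4 for degradation, was the 1 gene past the limit in *ccr4Δ pbp1Δ* over *ccr4Δ* cells, with -0.82 ± 0.16 in stationary phase and -0.65 ± 0.15 in log phase. Of the same 8, 6 were lower in *ccr4Δ* than in wild-type cells in stationary phase, *LYS14* with -1.34 and *LEU3* with -0.70 among them, against 29.1% of all genes.

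Other biosynthetic lists were read in the same ratios. In stationary phase, 10.8% of all genes were lower and 10.4% higher in *ccr4Δ pbp1Δ* than in *ccr4Δ* cells. In *ccr4Δ* over wild-type cells 22.6% were higher. Of 12 genes of sulfur assimilation and methionine synthesis, 12 were lower in *ccr4Δ pbp1Δ* than in *ccr4Δ* cells in stationary phase, with a median (log2) of -1.99, and 11 were higher in *ccr4Δ* than in wild-type cells, with 1.32. Of 11 purine biosynthesis genes, 4 were lower and 0 higher in *ccr4Δ pbp1Δ* than in *ccr4Δ* cells, with a median of -0.21. Of the 2 arginine catabolism genes, 1 was lower in that ratio. The 7 a-specific genes were also lower in *ccr4Δ pbp1Δ* than in *ccr4Δ* cells in stationary phase, 6 of 7 past the limit with a median of -1.37, while their sums stayed above wild-type cells in both. The 10 stationary phase genes had medians of -0.06 in stationary phase and -1.70 in log phase for the same pair of strains, and 10 of 10 were lower in log phase, where 7.0% of all genes were. Their part in the amino acid results was not tested.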

How the data were processed

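Total RNA, 100 ng per array, was labelled with Cy3 and hybridised to 1-colour Agilent yeast arrays. Per the file headers, Feature Extraction 11.0.1.1 made the deposited intensity files, in which every spot has a background-subtracted signal and quality flags. A second table that the authors deposited holds processed intensities in 6316 lines, 6256 of them matched to a probe here. Its columns have identical sorted values, as quantile normalization gives. Other columns, the flags and coordinates that the authors deposited, served only as filters or were not used. The array build is not given in the sources used here, so no coordinates are printed. Gene and promoter sequences were not analysed here, and the planned search for promoter motifs was not run.

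Control spots and outlier spots were removed, and the deposited intensities were put on a log2 scale on which the 75th percentile of each array is 0. Both spots of each probe were averaged. A gene counted as measured on an array with both spots of a probe well above background. Between 92.7% and 98.4% of probes were, and spots of a probe had an SD of 0.08 to 0.09 (log2). The SE of a ratio from its spots was 0.05 in the median over the 40 genes and at most 0.13. No spot was saturated. The number of arrays limits the precision. Of the 40 genes, 40 were found in the RefSeq table by systematic name.

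Ratios of array pairs have no test, and genes at least 1.5-fold higher or lower were counted. The additive fit of strain and growth phase was made in limma 3.58.1 (lmFit, eBayes; R 4.3.3) for the 5728 genes measured on all arrays, with Benjamini-Hochberg adjustment over them and 2 residual degrees of freedom. It was tested on simulated data of 5728 genes with 200 changed by a log2 difference of 2, and recovered 100% of them for the phase term, 100% for *ccr4Δ* minus wild-type and 99.5% for *ccr4Δ pbp1Δ* minus *ccr4Δ*. Of the simulated calls, 1.96% were false for the phase term, 6.98% for *ccr4Δ* minus wild-type and 3.4% for *ccr4Δ pbp1Δ* minus *ccr4Δ*. The simulated residual SD of 0.35 was the same for every gene, which does not hold for the arrays. A change of 2 is also larger than most differences of the 40 genes, whose median was -0.70 in *ccr4Δ pbp1Δ* minus *ccr4Δ*. The recovery therefore does not show that differences of their size could be called. Other steps used Python 3.11.15 and pandas 2.3.3.

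The 40 genes and all lists were chosen with earlier results of these data known. One of the 40 is kept in the counts and medians but is not reported here by itself. Named with all 6 values were *GCN4*, the highest and lowest gene of each pathway in *ccr4Δ* over wild-type cells in each phase and in stationary over log phase in wild-type cells, and the genes past the limit in the same direction in both phases of *ccr4Δ* over wild-type. Alternatives were the authors' processed values, quantile normalization, scaling to the median, no scaling, normexp on the median signal (offset 50), the brightest probe, a 2-fold limit, all probes without the background filter, and, for limma, a trended prior and each array left out.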

Additional observations from a re-analysis of the deposited data

Results flagged for a closer look

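Of the 40 genes, 3 were past 1.5-fold in opposite directions in the 2 growth phases in *ccr4Δ* over wild-type cells. *LYS9* had 1.74 in stationary phase and -0.64 in log phase, a difference of 2.39. *LYS21* had 1.49 in stationary phase and -0.75 in log phase, a difference of 2.25. *HOM2* had 1.36 in stationary phase and -1.40 in log phase, a difference of 2.77. With 1 array in each condition these differences were not tested. The log phase values of *LYS9* and *LYS21* passed the limit under some scalings and not under others, since with quantile normalization that of *LYS9* was -0.42.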

How the results depend on the processing

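With 1 array per strain and phase, a difference between 2 arrays has no replicate check, and strain, slide and marker differences cannot be told apart where they coincide. No paired analysis was possible because each strain and phase has 1 array, so no replicate numbers pair the arrays. The additive limma fit already compares phases within strains. A block for the slide would equal leaving out the wild-type log phase array, the only one on its slide, and the brightest-probe rule cannot move genes with 1 probe. No gene past 1.5-fold in an array ratio changed sign under the 6 alternatives that rescale or refilter the values. In the limma fit, differences past 1.5-fold on all 6 arrays changed sign when 1 array was left out for 3 genes in *ccr4Δ* minus wild-type (*ARG3*, *ARG8* and *HIS1*) and for 4 in *ccr4Δ pbp1Δ* minus *ccr4Δ* (*ARO4*, *HIS1*, *HOM2* and *LYS21*), none of them called, and for 0 between phases.

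The median over the 40 genes in *ccr4Δ pbp1Δ* over *ccr4Δ* cells was -1.31 in stationary phase, -1.08 without scaling, -1.52 with quantile normalization and -1.53 in the authors' processed values, and 29 of the 34 genes at least 1.5-fold lower stayed so under all 6 alternatives that rescale or refilter the values. In log phase it was -0.18, and -0.034 without scaling, where 1 gene was higher. The median in *ccr4Δ* over wild-type cells was 0.45 in stationary phase and 0.055 without scaling, where 11 genes were higher and 8 lower in place of 18 and 4. Under all 6 alternatives, 11 of those 18 and 4 of those 4 stayed past the limit. In log phase it was -0.29, -0.11 with quantile normalization and -0.12 in the authors' values, with 5 lower genes in place of 10 in both. For stationary over log phase the *ccr4Δ pbp1Δ* median was -0.65 and -1.04 without scaling, with 4 higher genes in place of 8. The *ccr4Δ* median was 0.53, 0.052 without scaling, 0.70 in the authors' values and 0.68 with quantile normalization, and without scaling there were 9 higher and 13 lower genes in place of 18 and 5. The wild-type median was -0.49, -0.67 with median scaling, -0.21 with quantile normalization and -0.22 in the authors' values. For *ccr4Δ pbp1Δ* over wild-type cells in log phase, 2 genes were higher in place of 1 with quantile normalization and in the authors' values. Leaving out the scaling and scaling to the median each move every gene of a ratio by the same amount, and the cause of the other shifts was not tested.

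A 2-fold limit lowers counts by construction. It left 27 of 34 lower genes in *ccr4Δ pbp1Δ* over *ccr4Δ* in stationary phase and 4 of 8 in log phase, 11 of 18 higher genes in *ccr4Δ* over wild-type in stationary phase, and 2 of 7 higher and 4 of 10 lower genes in log phase. In stationary over log phase it left 4 of 8 higher and 13 of 22 lower genes in *ccr4Δ pbp1Δ*, 10 of 18 and 3 of 5 in *ccr4Δ*, and 7 of 11 higher genes in wild-type cells. In *ccr4Δ pbp1Δ* over wild-type it left 0 of 2 higher and 15 of 23 lower genes in stationary phase, and 0 of 1 and 6 of 16 in log phase.

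The limma fit called 9 of the 40 genes higher and 10 lower in stationary phase, against 1472 and 1293 of 5728 genes. Without scaling it called 5 and 14, against 887 and 1659 of 5728 genes. With quantile normalization it called 7 and 6, against 1192 and 1327. In the authors' values it also called 7 and 6, against 1184 and 1327. The median difference of the 40 genes was -0.29 on all 6 arrays. It was -0.64 with either *ccr4Δ* array left out and 0.0017 with either *ccr4Δ pbp1Δ* array left out. For *ccr4Δ* minus wild-type the fit called 0 of the 40 genes on all 6 arrays, with a median difference of 0.18. This median was 0.64 without the *ccr4Δ* log phase array and -0.36 without the *ccr4Δ* stationary phase array. For *ccr4Δ pbp1Δ* minus *ccr4Δ* the fit called 0 of the 40 genes on all 6 arrays. Its unadjusted limma p was under 0.05 for 11 lower genes, against 1.66% of all genes lower. When 1 array was left out, the median difference of the 40 genes ranged from -1.27 (without the *ccr4Δ* log phase array) to -0.19 (without the *ccr4Δ* stationary phase array).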
